A study of Mus musculus with 6 samples.

Results

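The translation initiation and elongation factors were the genes whose symbol begins with Eif followed by a digit from 1 to 6, or with Eef followed by 1 or 2. The rule used names only, and it found 68 of the 16759 genes in the expression table, among them the subunits of each factor, their kinases and binding proteins and the methyltransferases that modify them. Transcripts were measured by RNA sequencing in hind leg muscle of male C57BL/6J mice that were 8 weeks old at the start. The 3 mice of the exercise group (EX) ran on a treadmill for 60 min a day, 5 days a week, for 6 weeks, covered 22 km each and were killed 24 h after their last session, whereas the 3 mice of the control group (Con) were not trained on the treadmill. Each library came from 1 mouse, so the tests below measure the spread between mice, and which hind leg muscle was taken was not stated in the sources used here. The question was how transcripts of the translation machinery differed between trained and untrained muscle.

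Protein synthesis starts when eIF2 carries the initiator tRNA to the small ribosomal subunit, which eIF1, eIF1A, eIF3 and eIF5 prepare for start codon selection. The mRNA is brought in by eIF4F, made of the cap-binding protein eIF4E, the scaffold eIF4G and the helicase eIF4A, and eIF5B then joins the large subunit. During elongation eEF1A delivers each aminoacyl-tRNA, the eEF1B complex recharges eEF1A with GTP, eIF5A relieves stalled ribosomes and eEF2 moves the ribosome along by 1 codon. Skeletal muscle is known for its eEF1A isoform, since adult fibres replace eEF1A1 with eEF1A2.

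Many mRNAs of the translation machinery are known to begin with a C followed by a run of pyrimidines, through which growth signalling controls their use by the ribosome. The RefSeq start sites (GRCm38.p6) of 53 of the 68 members were therefore searched on the transcript strand for a C followed by at least 4 bases that were each C or T. The windows below hold the 30 bases before and the 20 bases after the RefSeq start, 5′ to 3′. They show the isoform pair contrasted below and members whose transcript was higher in EX and held no run. Shown too are the members whose first transcribed base was a C followed by at least 4 pyrimidines. In these, Eif3f and Eif2s3x, the marked run begins before that base. Capitals mark the run, which had to begin within 10 bases of the start.
Eef1a1 (chr9:78481705-78481754, minus strand): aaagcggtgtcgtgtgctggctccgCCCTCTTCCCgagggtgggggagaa
Eef1a2 (chr2:181156996-181157045, minus strand): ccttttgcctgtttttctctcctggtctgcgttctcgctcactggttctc
Eif3f (chr7:108934385-108934434, plus strand): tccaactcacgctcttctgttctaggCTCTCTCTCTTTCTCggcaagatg
Eif2s3x (chrX:94212632-94212681, minus strand): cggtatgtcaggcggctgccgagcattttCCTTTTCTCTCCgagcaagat
Eef1b2 (chr1:63176801-63176850, plus strand): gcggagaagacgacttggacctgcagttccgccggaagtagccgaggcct
Eif3m (chr2:105017008-105017057, minus strand): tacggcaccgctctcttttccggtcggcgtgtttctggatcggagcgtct

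A run began within 10 bases of the start in 17 of the 52 tested members with a RefSeq start, or 32.7%, against 36.2% of the 8762 tested genes with one. Where the first transcribed base had to be a C followed by at least 4 pyrimidines, the count was 2 of these 52 members (3.85%, Eif3f and Eif2s3x) against 3.04% of the tested genes. Of the 7 members higher in EX with a RefSeq start, 1 held the run near its start. A match of letters in this window describes the annotated start and says nothing of which start the muscle used.

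The libraries held between 13845362 and 16240431 estimated counts, and their 20 most abundant genes took 30.1% to 32.5% of them. The TMM factors that scale each library in edgeR lay between 0.971 and 1.03. Muscle fibre markers were at a high level throughout, with a summed level of 197883 to 204737 CPM, the count of a gene relative to the scaled library total, in Con and 215228 to 225195 in EX. All 10 of the slow fibre markers listed were present and 9 were tested, all of which were higher in EX. The summed level of the 10 went from between 173 and 182 CPM to between 452 and 481 CPM. The median log2 fold change of the 9 was 3.48, which the sum understates. Myh7 had means of 1.005 and 102.2 CPM in Con and EX, Myl2 2.60 and 28.7, Tnnt1 1.497 and 28.3, Tnnc1 0.502 and 14.7 and Tnni1 0.402 and 11.6. Atp2a2 (54.2 and 118.6 CPM), Tpm3 (43.4 and 64.8), Myl3 (42.7 and 56.5) and Casq2 (29.4 and 34.9) had higher Con levels and smaller log2 fold changes, from 0.247 to 1.13. Of the macrophage markers 6 of 7 tested were higher, from 45.6 to 50.2 CPM in Con to 81.5 to 87.8 CPM in EX. Fibroblast markers (3 of 10 higher, 1001 to 1036 against 1328 to 1337 CPM), adipocyte markers (6 of 8 higher, 647 to 670 against 753 to 782 CPM) and tendon markers (4 of 9 higher, 194 to 216 against 278 to 293 CPM) also summed to more in EX. The 3 fibroblast markers that were higher were the collagens Col1a1, Col1a2 and Col3a1. Most of the summed adipocyte difference was in Plin4, with means of 405 and 500.5 CPM. The median log2 fold change of the 8 tested adipocyte markers was 1.01, and Fabp4 (229 and 215 CPM) and Pparg (5.01 and 4.61 CPM) did not pass. Markers of regenerating fibres (3 of 5 tested higher) summed to 553 to 616 CPM in Con and 1650 to 1750 CPM in EX. Nearly all of this was Actc1, with means of 511 and 1603 CPM. Myog (4.31 and 8.56 CPM) and Myod1 (42.3 and 57.3 CPM) were higher too, while Pax7 (7.14 and 6.79 CPM) and Ncam1 (10.1 and 11.7 CPM) did not pass. Not tested were Myh3 (0.987 and 7.70 CPM) and Myh8 (1.69 and 7.25 CPM). The same held for Mymk (0.045 and 1.37 CPM), Chrng (0.024 and 0.487 CPM) and Mymx (0.024 and 0.19 CPM). Endothelial markers (6 of 10 lower, 926 to 944 against 803 to 822 CPM) and Schwann cell markers (4 of 6 lower, 117 to 131 against 89.2 to 93.4 CPM) summed to less in EX, and no listed marker was at 0 in all libraries. The part of these shifts in the factor transcripts was not tested, and in whole muscle fewer cells of a type and less RNA per cell cannot be told apart.

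Most translation factor transcripts were abundant, and most did not pass the test between the groups. Of the 68 members, 65 had a mean of at least 1 FPKM, a level that is also divided by transcript length, and were tested. Their median level was 40.9 FPKM against 8.85 FPKM for the 10883 tested genes. At an adjusted p under 0.05 (edgeR, Benjamini-Hochberg over the 10883 genes), 9 members were higher in EX, 2 were lower and 54 did not pass. The 11 called members were 16.9% of those tested, beside 17.9% of all genes, so the share called was near the background and was no result about the factors as a class. By direction, 13.8% of members were higher (background 9.11%) and 3.08% were lower (background 8.8%). This split turned to 4 higher and 9 lower when edgeR scaled the libraries by total counts, and to 2 higher and 11 lower with limma on TPM, which changes the test as well as the scale. The median log2 fold change of the members was 0.039, beside -0.00093 over all genes, and the median size of change was 0.071 beside 0.098. A log2 fold change above 0 was found in 35 members (53.8%), beside 49.7% of all genes. With total counts 27 of 65 members were above 0 and the median was -0.017, beside -0.057 over all genes, and with limma on TPM 20 were above 0 and the median was -0.061, beside -0.091. The TMM-scaled CPM of the groups did not overlap in 19 members higher in EX (29.2%, background 16.8%) and 6 lower (9.23%, background 16.9%). Together this is 38.5% of members against 33.7% of all genes. The replicates were close, with a median coefficient of variation of 3.58% in Con and 3.29% in EX.

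**Figure D1:**
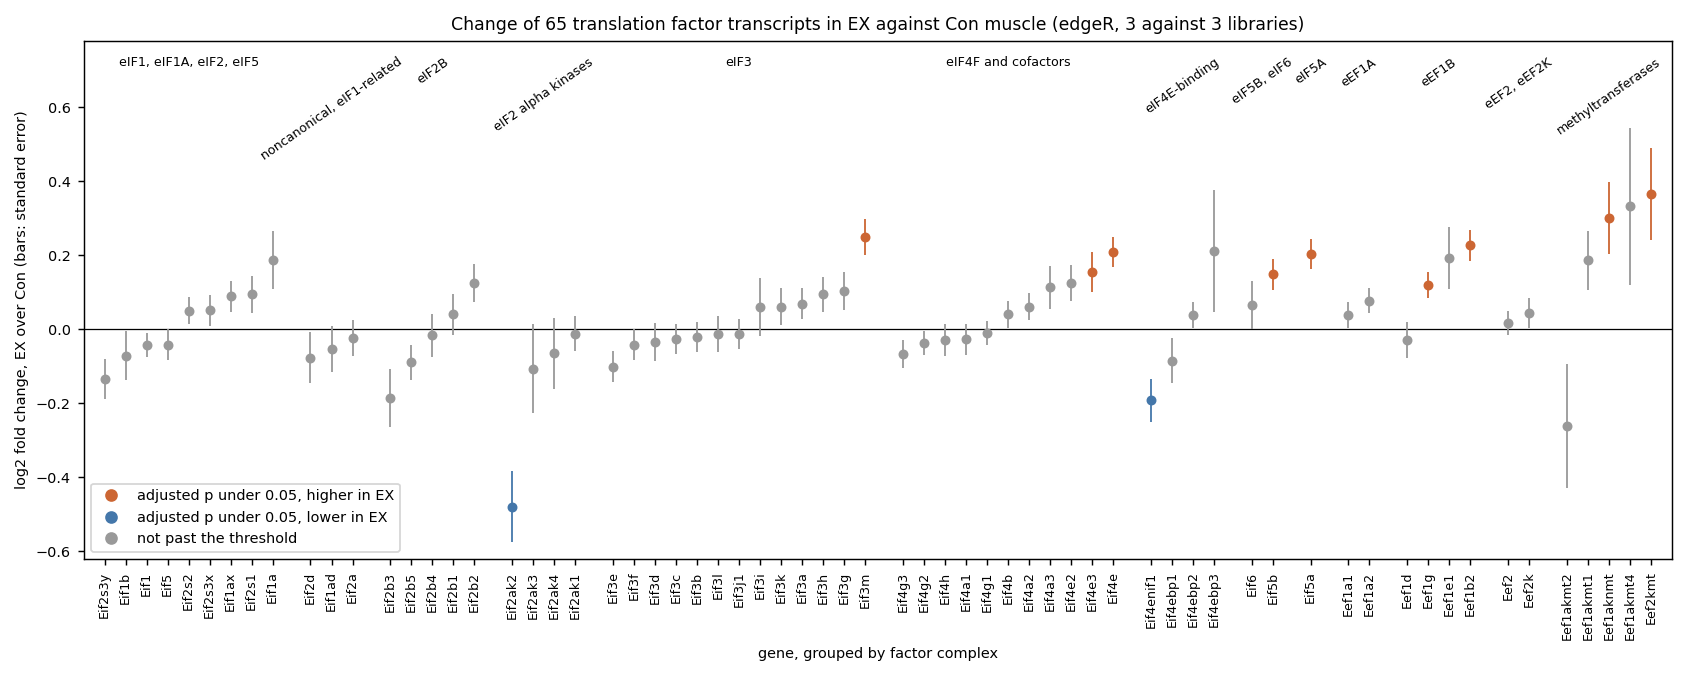
Log2 fold change (vertical axis, EX over Con, bars: standard error) of the 65 tested members, grouped by factor complex along the horizontal axis. Orange points mark the 9 members higher in EX and blue points the 2 lower, Eif2ak2 and Eif4enif1; the grey points mark the other 54, which run from -0.26 (Eef1akmt2) to 0.33 (Eef1akmt4).

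On the deposited FPKM scale the order of levels was led by Eif1, which guards start codon choice, with a mean of 669 FPKM, followed by Eef2, the translocation factor, with 487 FPKM. Eef1a1 (389 FPKM), the eEF1B subunit Eef1g (324 FPKM) and Eif5a (290 FPKM) came next. Eef1a2 (230 FPKM) and the helicase Eif4a2 (222 FPKM) were neighbours whose spreads met in Con, at 228 ± 5.44 and 222 ± 10.3 FPKM (SD, n = 3). At the low end lay the eIF2 alpha kinases Eif2ak3 (1.82 FPKM), Eif2ak2 (2.12 FPKM) and Eif2ak4 (2.31 FPKM), while the fourth kinase, Eif2ak1, stood at 26.3 FPKM. Of the 65 members, 16 had a mean above 100 FPKM. The place of Eef1a2 rests on the length behind its FPKM: per kb of the longest GENCODE M21 coding transcript, it led the 64 tested members with such a length at 848 CPM per kb, before Eif1 (476), Eef2 (439) and Eef1a1 (319). Other places rest on the length as well. With GENCODE lengths Eef1d moved from rank 8 to 26, Eif4e from 20 to 35 and Eif4ebp1 from 27 to 45.

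**Figure D2:**
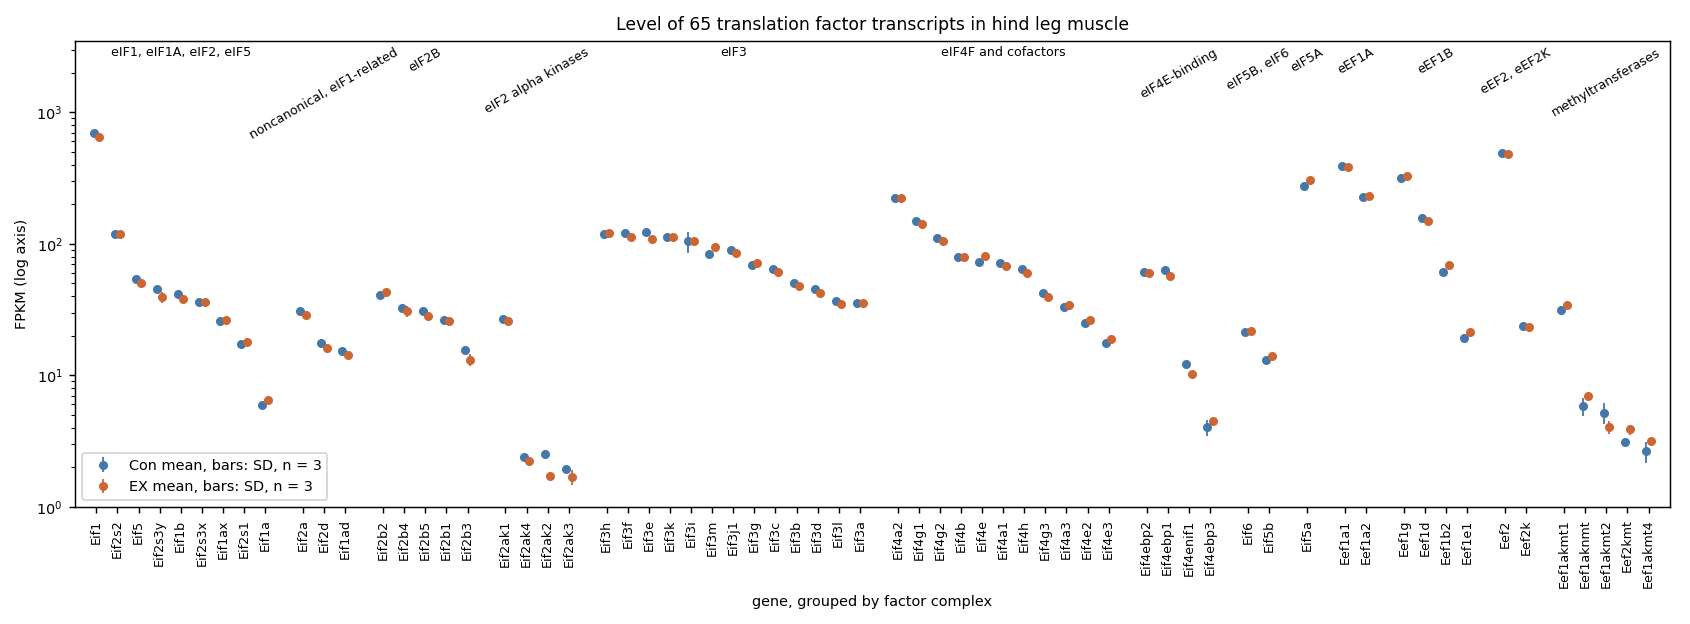
Mean level of each of the 65 tested members in FPKM (log axis) in Con and EX, with bars for the SD of 3 libraries, grouped by factor complex. In FPKM the levels run from 1.82 for Eif2ak3 to 669 for Eif1, although Eef1a2 stands above Eif1 with GENCODE lengths. Within most genes the means of Con and EX lie close together, whereas Eif2ak2 is at 2.54 FPKM in Con and 1.71 FPKM in EX.

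The proteins that bring the initiator tRNA and choose the start codon (eIF1, eIF1A, eIF2 and eIF5) included 9 tested transcripts, none of which passed the test. Eif1 was at 630, 640 and 644 CPM in Con and 625, 614 and 618 CPM in EX (log2 fold change -0.04, SE 0.033, adjusted p = 0.416). The EX libraries all lay below the Con libraries in Eif1, and it was called lower with total counts (-0.10, adjusted p = 0.0348) and in TPM (-0.14, limma, adjusted p = 0.0258), where its paralogue Eif1b was called lower as well (-0.17, adjusted p = 0.0481). The beta subunit of eIF2, Eif2s2, was at 258, 252 and 256 CPM in Con and 265, 264 and 264 CPM in EX, with an adjusted p of 0.359 (edgeR). Eif2s3y was at 69.8, 67.2 and 74.2 CPM in Con and 69.3, 63.7 and 59.6 CPM in EX (-0.13, adjusted p = 0.0869), and was called lower without EX replicate 1 (adjusted p = 0.0223), with total counts (0.0137), with totals without the 20 most abundant genes (0.0394) and in TPM (limma, 0.043). The gamma subunit is encoded on both sex chromosomes, and the FPKM of the X-linked Eif2s3x was 0.806, 0.863 and 0.755 times that of the Y-linked Eif2s3y in Con and 0.853, 0.913 and 1.01 times in EX. These ratios overlapped (exact permutation test, two-sided p = 0.2, adjusted 0.4 over 10 pairs).

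None of the 5 subunits of eIF2B, the exchange factor that reloads eIF2 with GTP, passed the test, and their changes ran from -0.18 (Eif2b3, adjusted p = 0.104) to 0.12 (Eif2b2, adjusted p = 0.0979) on the log2 scale. Eif2b2 passed without EX replicate 3 (adjusted p = 0.0453). Eif2b3 was called lower without EX replicate 1 (0.0391), with total counts (0.0292) and in TPM (limma, 0.0307), and Eif2b5 with total counts (0.0362) and in TPM (limma, 0.0399). The 4 eIF2 alpha kinases, which block eIF2B by phosphorylating eIF2 under stress, had 1 member past the threshold. Eif2ak2, also known as PKR, the kinase that senses double-stranded RNA and is induced by interferon, was at 15.7, 14.4 and 12.9 CPM in Con and 10.3, 10.9 and 9.53 CPM in EX. Each EX library lay below each Con library, and the fall was the largest in size of any tested member (log2 fold change -0.48, SE 0.096, adjusted p = 6.1e-04). The haem-regulated kinase Eif2ak1 was at 65.01 ± 0.306 CPM in Con and 64.5 ± 2.84 CPM in EX (SD, n = 3). The endoplasmic reticulum kinase Eif2ak3 (-0.11, adjusted p = 0.597) and the amino acid sensor Eif2ak4 (-0.07, adjusted p = 0.692) had negative log2 fold changes that did not pass.

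The Eif2ak2 promoter is known for an interferon-stimulated response element, so the 300 bases around each RefSeq start (250 before and 50 after) were searched on both strands for its core letters (GAAA, any pair of bases, GAAA). This search was chosen after the values of Eif2ak2 were seen. The letters were found in 4 of 53 members (7.55%), against 3.99% of the 27025 genes with a RefSeq start. In Eif2ak2 the match began at base 19 counted from the start, and it is shown in capitals on the minus strand of chr17:78882535-78882564, 5′ to 3′.
Eif2ak2: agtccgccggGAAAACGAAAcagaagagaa
The other matches were in Eif2s1, Eif3a and Eif2s3x, none of which passed the test in expression.

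The scaffold eIF3 holds the initiation complex together, and 1 of its 13 tested subunits passed the test. Eif3m, a subunit of its core, was at 74.2, 70.0 and 79.0 CPM in Con and 85.2, 89.2 and 90.9 CPM in EX (log2 fold change 0.25, SE 0.049, adjusted p = 4.6e-04). All EX libraries lay above the highest Con library. The other subunits had log2 fold changes from -0.10 (Eif3e, adjusted p = 0.0991) to 0.10 (Eif3g, adjusted p = 0.164). Eif3e was called lower in 6 alternatives, among them total counts (adjusted p = 0.00917), FPKM (limma, 0.0382 and 0.0378 by pseudocount) and TPM (limma, 0.018). The most abundant subunit in FPKM, Eif3h, was at 118 ± 7.96 FPKM in Con and 121 ± 3.50 FPKM in EX. Eif3i was the least even member in Con, at 94.8, 84.0 and 63.3 CPM, while its EX libraries lay between 82.7 and 84.6 CPM, and it passed only without Con replicate 1 among the settings run (0.18, adjusted p = 0.022). Reads of Eif3j1 and its near copy Eif3j2 were assigned in fractions, so their division is uncertain.

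In the cap-binding and helicase group, 2 of 11 tested members were higher and none was lower. Eif4e, the cap-binding protein whose supply limits cap-dependent initiation, was at 122, 121 and 124 CPM in Con and at 141, 142 and 141 CPM in EX. The groups stood well apart, and the log2 fold change was 0.21 (SE 0.04, adjusted p = 3.5e-04). The EX libraries were closest together of all members (coefficient of variation 0.12%). A spread this small lies below the counting error of 2242, 2225 and 2226 reads, so it does not measure the spread between mice. The related Eif4e3 was at 37.9, 39.4 and 38.9 CPM in Con and 45.2, 42.2 and 42.1 CPM in EX (0.15, SE 0.054, adjusted p = 0.0456), which was just inside the threshold. The call was lost when any 1 of the 6 libraries was left out, with adjusted p from 0.0634 without EX replicate 2 to 0.179 without EX replicate 1, and also with DESeq2 (0.184) and on FPKM (limma, 0.234). Eif4e2, a cap-binding homologue linked to translational repression, was at 56.5 ± 1.85 CPM in Con and 61.6 ± 2.47 CPM in EX and was just outside it (adjusted p = 0.0821). The scaffold Eif4g1 was at 734, 745 and 736 CPM in Con and 738, 735 and 726 CPM in EX (-0.01, adjusted p = 0.869). Its relatives Eif4g2 (-0.04, adjusted p = 0.497) and Eif4g3 (-0.07, adjusted p = 0.226) did not pass either, but were called lower with total counts (0.0462 and 0.0189) and in TPM (limma, 0.0488 and 0.0383).

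The helicase pair Eif4a1 and Eif4a2 did not pass the test as single genes, and the FPKM of Eif4a1 was 0.332, 0.319 and 0.321 times that of Eif4a2 in Con and 0.299, 0.317 and 0.300 times in EX. The ratios did not overlap, with a log2 difference of -0.09, as was so for Eif4g1 over Eif4g3 with a difference of 0.05 (exact permutation p = 0.1 for both, the smallest that 3 against 3 libraries can give; adjusted 0.333 over 10 pairs). No pair could therefore reach 0.05. Of the remaining pairs, the ratios of Eif4ebp1 to Eif4ebp2, Eif4g1 to Eif4g2, Eif4e to Eif4e2, Eif4e to Eif4e3, Eif1 to Eif1b and Eif1a to Eif1ax all overlapped between the groups, with adjusted p from 0.4 to 0.6 in the exact permutation test.

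Among the 4 proteins that bind eIF4E, Eif4enif1, which carries eIF4E into the nucleus and to processing bodies, was at 41.5, 37.0 and 38.8 CPM in Con and 35.01, 33.6 and 33.9 CPM in EX. It was lower in every EX library (log2 fold change -0.19, SE 0.058, adjusted p = 0.0193). The adjusted p was 0.0789 without Con replicate 1, 0.0735 without EX replicate 2, 0.0716 without EX replicate 3 and 0.0957 with DESeq2. The translational repressors that mTORC1 inactivates did not pass the test: Eif4ebp1 was at 40.5 ± 2.38 CPM in Con and 38.2 ± 2.95 CPM in EX, and Eif4ebp2 at 313 ± 5.78 and 321 ± 1.12 CPM (SD, n = 3).

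Eif5b, the GTPase that joins the ribosomal subunits, was at 94.8, 96.1 and 99.5 CPM in Con and 107, 106 and 109 CPM in EX (log2 fold change 0.15, SE 0.042, adjusted p = 0.0139), with no overlap. The call was lost without Con replicate 2 (adjusted p = 0.065), without EX replicate 3 (0.0797), with total counts (0.144), on FPKM (limma, 0.252) and in TPM (limma, 0.456), where its change was 0.057. Eif6, which keeps the large subunit from joining too early, was at 24.7 ± 0.64 CPM in Con and 25.9 ± 1.04 CPM in EX and did not pass (adjusted p = 0.529). The noncanonical factors Eif2a and Eif2d and the eIF1-related Eif1ad did not pass either, with log2 fold changes of -0.02, -0.08 and -0.05. Eif5a, the only protein with the amino acid hypusine besides its paralogue, was at 283, 290 and 262 CPM in Con and 310, 318 and 333 CPM in EX. Its EX libraries all exceeded its Con libraries, by a log2 fold change of 0.20 (SE 0.041, adjusted p = 6.5e-04), and the adjusted p was 0.0595 on FPKM and 0.12 in TPM (limma).

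Among the exchange factors of elongation, the eEF1B subunits Eef1b2 and Eef1g were higher in EX, and Eef1d and the related Eef1e1 did not pass. Eef1b2, the catalytic subunit that exchanges GDP for GTP on eEF1A, was at 95.05, 97.8 and 97.2 CPM in Con and 112, 115 and 113 CPM in EX. The increase was even across the libraries (log2 fold change 0.23, SE 0.042, adjusted p = 2.2e-04). Eef1g, which anchors the complex, was at 375, 389 and 395 CPM in Con and 413, 418 and 429 CPM in EX (0.12, SE 0.036, adjusted p = 0.0174). Its call was lost without Con replicate 2 (adjusted p = 0.056), without EX replicate 3 (0.121), with total counts (0.224), on FPKM (limma, 0.303) and in TPM (limma, 0.641), where its change was 0.027. Eef1d, the alternative exchange subunit, was at 115 ± 8.53 CPM in Con and 113 ± 4.44 CPM in EX, and Eef1e1, which belongs to the multi-tRNA synthetase complex, at 13.6 ± 0.971 and 15.5 ± 0.388 CPM (adjusted p = 0.743 and 0.113). Eef2 was at 1372, 1347 and 1326 CPM in Con and 1315, 1398 and 1381 CPM in EX, and its kinase Eef2k, which halts elongation, at 140 ± 4.26 and 145 ± 2.71 CPM, and neither passed the test.

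The 5 enzymes that methylate elongation factors ranged from 2.91 FPKM (Eef1akmt4) to 32.7 FPKM (Eef1akmt1), and 2 were higher in EX. Eef2kmt, which methylates a lysine of eEF2, was at 5.45, 5.92 and 5.39 CPM in Con and 6.75, 6.94 and 7.94 CPM in EX (log2 fold change 0.37, SE 0.13, adjusted p = 0.0422). Leaving out any library but EX replicate 1 ended this call, with adjusted p from 0.0557 (without Con replicate 2) to 0.199 (without EX replicate 3), and DESeq2 gave 0.178. Eef1aknmt, which methylates the N terminus and a lysine of eEF1A, was at 13.6, 15.5 and 11.2 CPM in Con and 16.3, 15.5 and 17.8 CPM in EX (0.30, SE 0.097, adjusted p = 0.0309). Its groups overlapped, since Con replicate 2 lay above EX replicate 2, and the log2 fold change ran from 0.18 without Con replicate 3 (adjusted p = 0.23) to 0.42 without Con replicate 2. Further adjusted p values were 0.0664 without EX replicate 1, 0.168 without EX replicate 3 and 0.113 with DESeq2. Eef1akmt1 (0.19, adjusted p = 0.105), Eef1akmt4 (0.33, adjusted p = 0.305) and Eef1akmt2 (-0.26, adjusted p = 0.308) did not pass.

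**Figure D3:**
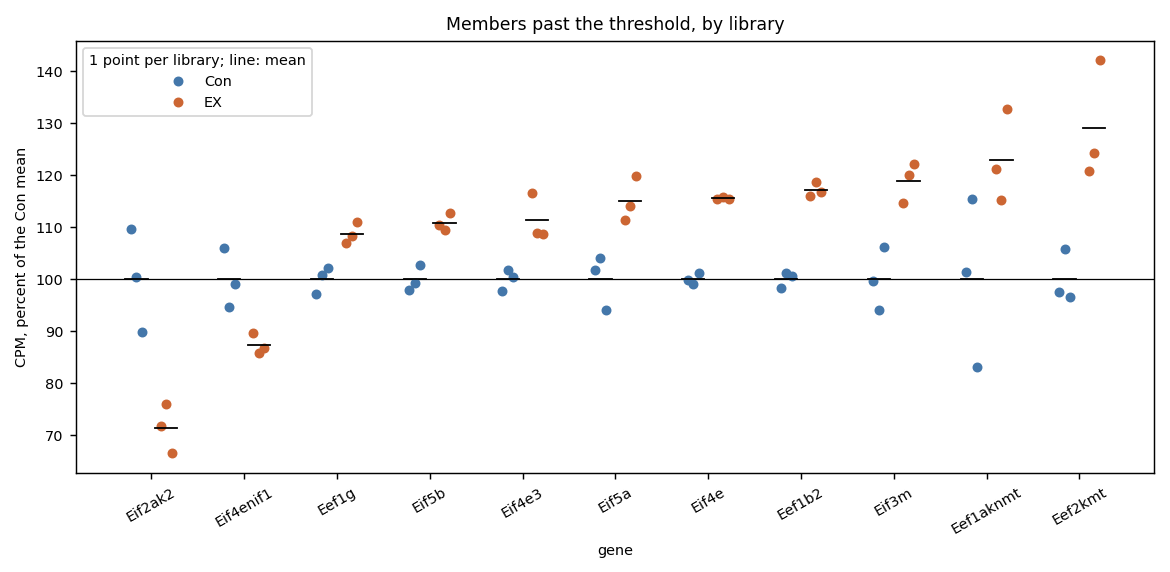
CPM of the 11 members past the threshold, as a percentage of the mean of the Con libraries (vertical axis), with 1 point per library and a line at each group's mean. In Eif4e the EX points almost coincide at about 15.6% above the Con mean, whereas in Eef1aknmt the groups overlap.

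The isoforms Eef1a1 and Eef1a2 carry the same activity, and neither passed the test between EX and Con. Eef1a1 was at 588, 553 and 552 CPM in Con and 565, 590 and 584 CPM in EX (log2 fold change 0.04, SE 0.036, adjusted p = 0.499). Eef1a2 was at 1778, 1679 and 1699 CPM in Con and 1758, 1847 and 1836 CPM in EX (0.08, SE 0.034, adjusted p = 0.113). In both genes the groups overlapped. Without Con replicate 1, Eef1a2 passed the threshold (0.10, adjusted p = 0.0186). Eef1a2 drew 3.03, 3.03 and 3.08 reads for each read of Eef1a1 in Con and 3.11, 3.13 and 3.15 in EX.

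Per length the order of the isoforms depended on the length used. On the deposited FPKM scale Eef1a1 was at 403, 383 and 387 in Con and 380, 390 and 389 in EX, and Eef1a2 at 234, 223 and 227 in Con and 226, 233 and 235 in EX. By that scale Eef1a1 exceeded Eef1a2 by 1.72, 1.72 and 1.70 times in Con and 1.68, 1.67 and 1.66 times in EX. The counts and the FPKM together imply a transcript length, and for Eef1a1 it was 1458 to 1471 bases, but for Eef1a2 it was 7648 to 7662 bases. The longest coding transcripts of the GENCODE M21 annotation have 1794 and 2084 bases, so the length implied for Eef1a2 was 3.67 times its longest annotated one. Of the 64 tested members with an annotated coding transcript, Eef1a2 alone exceeded it by over 1.5 times, and the median ratio was 0.813. With the GENCODE lengths in place, the order turned round, and Eef1a2 was 2.60, 2.61 and 2.65 times Eef1a1 in Con and 2.68, 2.69 and 2.71 times in EX. The reason for the long implied length was not tested.

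The change of the isoform ratio between the groups does not depend on which length is used. The log2 ratio of Eef1a1 to Eef1a2 was 0.78 ± 0.0087 in Con and 0.74 ± 0.011 in EX on the FPKM scale (SD, n = 3), a difference of -0.04. The 3 EX libraries all had a lower ratio than the 3 Con libraries, and the exact permutation test gave a two-sided p of 0.1, which is the smallest this design allows (adjusted 0.333 over 10 pairs).

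**Figure D4:**
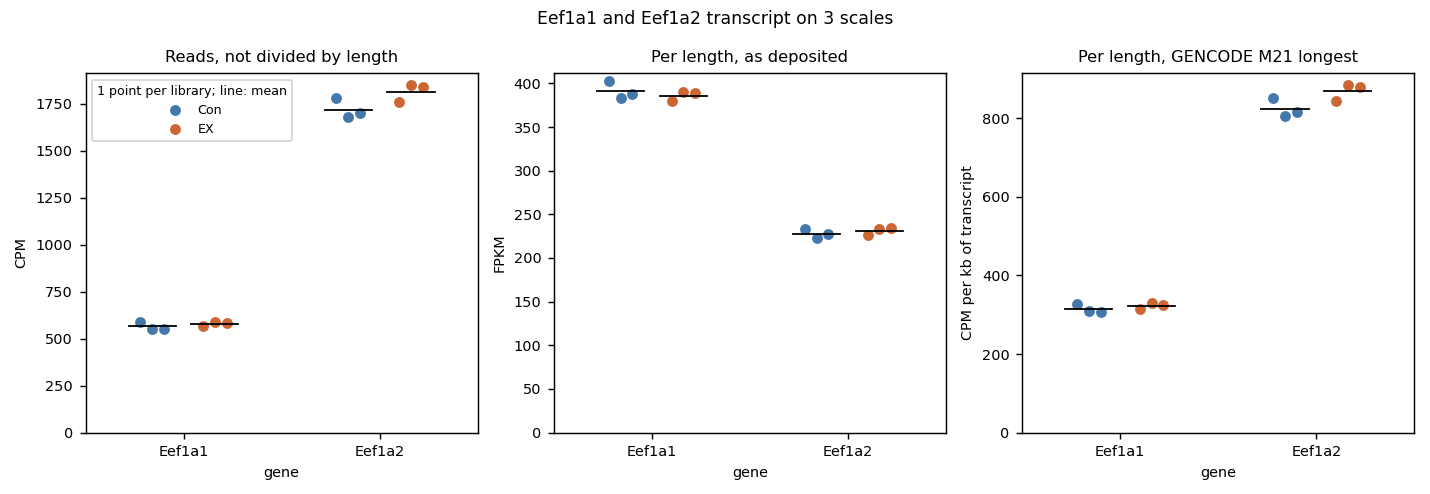
Level of Eef1a1 and Eef1a2 in each library as reads (CPM), per length as deposited (FPKM) and per length of the longest GENCODE M21 coding transcript (CPM per kb), with 1 point per library and a line at each group's mean. Eef1a2 is the higher isoform in the first and last panels and the lower one in FPKM.

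Below the level filter lay Eif4e1b, Eif3j2 and Eif5a2. Eif4e1b, a germline homologue of eIF4E, had 0, 1 and 0 reads in the Con libraries and 5, 6 and 4 in the EX libraries. These 15 reads against 1 correspond to a ratio of 14.5 with a 95% exact interval of 2.23 to 609, which covers counting error only. In an edgeR fit without the filter the gene was called higher (log2 fold change 3.44, SE 1.03, adjusted p = 0.0189; 2013 of 16716 genes, or 12%, were called in that fit). In the Con libraries at 0 a level of up to 3 reads, or 0.188 to 0.215 CPM over the libraries, cannot be told from absence. Eif5a2, the paralogue of Eif5a, had 31, 36 and 35 reads in Con and 38, 45 and 40 in EX, and Eif3j2 had between 5.17 and 29.4 estimated reads per library.

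Other genes of the translation pathway were counted in 4 lists, of which 16.7%, 13.3%, 18.2% and 36.4% of the tested genes were called in the order given here, beside 17.9% of all genes. Of the factors of termination, recycling and reinitiation, 2 of 12 tested were higher and none lower: Gspt1, the release factor eRF3, went from 93.3 to 105 CPM (log2 fold change 0.17, adjusted p = 5.8e-03) and Mcts1, which aids recycling and reinitiation, from 24.1 to 28.1 CPM (0.21, adjusted p = 0.033). Of 30 regulators, 3 were higher and 1 lower. Deptor, an mTOR-binding inhibitor, stood at 127 ± 3.79 CPM in Con and 165 ± 1.35 CPM in EX (0.37, adjusted p = 7.6e-08). The cytoplasmic poly(A)-binding protein Pabpc4 (302 to 349 CPM, 0.21, adjusted p = 2.0e-04) and the mTORC1 activator Rheb (56.9 to 63.1 CPM, 0.15, adjusted p = 0.035) were the others that were higher. Ppp1r15a, which recruits the phosphatase that reverses eIF2 alpha phosphorylation, fell from 50.2 to 39.2 CPM (-0.36, adjusted p = 1.4e-05).

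Among 11 mitochondrial translation factors, 2 were higher and none lower, the elongation factors Tufm (122 to 135 CPM, 0.15, adjusted p = 0.015) and Gfm1 (130 to 143 CPM, 0.13, adjusted p = 0.044). The list of the multi-tRNA synthetase complex with valyl-tRNA synthetase had 3 of 11 tested members higher and 1 lower, led by the scaffold Aimp2, which went from 143 to 186 CPM (0.38, adjusted p = 1.4e-07). The arginyl-tRNA synthetase Rars (56.9 to 65.6 CPM, 0.20, adjusted p = 3.2e-03) and the aspartyl-tRNA synthetase Dars (101 to 110 CPM, 0.13, adjusted p = 0.033) were higher, and the methionyl-tRNA synthetase Mars (121 to 109 CPM, -0.16, adjusted p = 8.5e-03) was lower. The median log2 fold changes of the 4 lists were 0.03, -0.002, 0.09 and 0.05, in the order given. Aimp2, Deptor, Ppp1r15a, Pabpc4, Rars and Gspt1 stayed called when any 1 library was left out. Gspt1 lost its call with total counts (adjusted p = 0.0691), on FPKM (limma, 0.18) and in TPM (0.31), where its change was 0.083, Rars on FPKM (0.0832) and in TPM (0.147), and Pabpc4 in TPM (0.0707). Tufm lost its call with total counts (0.149), on FPKM (0.193) and in TPM (0.39). The calls of Mars (without EX replicate 1, adjusted p = 0.0554), Tufm (0.0512 without Con replicate 1, 0.0563 without EX replicate 2 and 0.0893 without EX replicate 3), and Dars, Gfm1, Mcts1 and Rheb (4 of the 6 omissions each, 0.0501 to 0.265) did not all hold. The last 4 were also lost with DESeq2 (Dars 0.0872, Gfm1 0.0969, Mcts1 0.132 and Rheb 0.127) and in TPM (limma, 0.653, 0.642, 0.215 and 0.485 in that order), and with total counts and on FPKM.

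**Figure D5:**
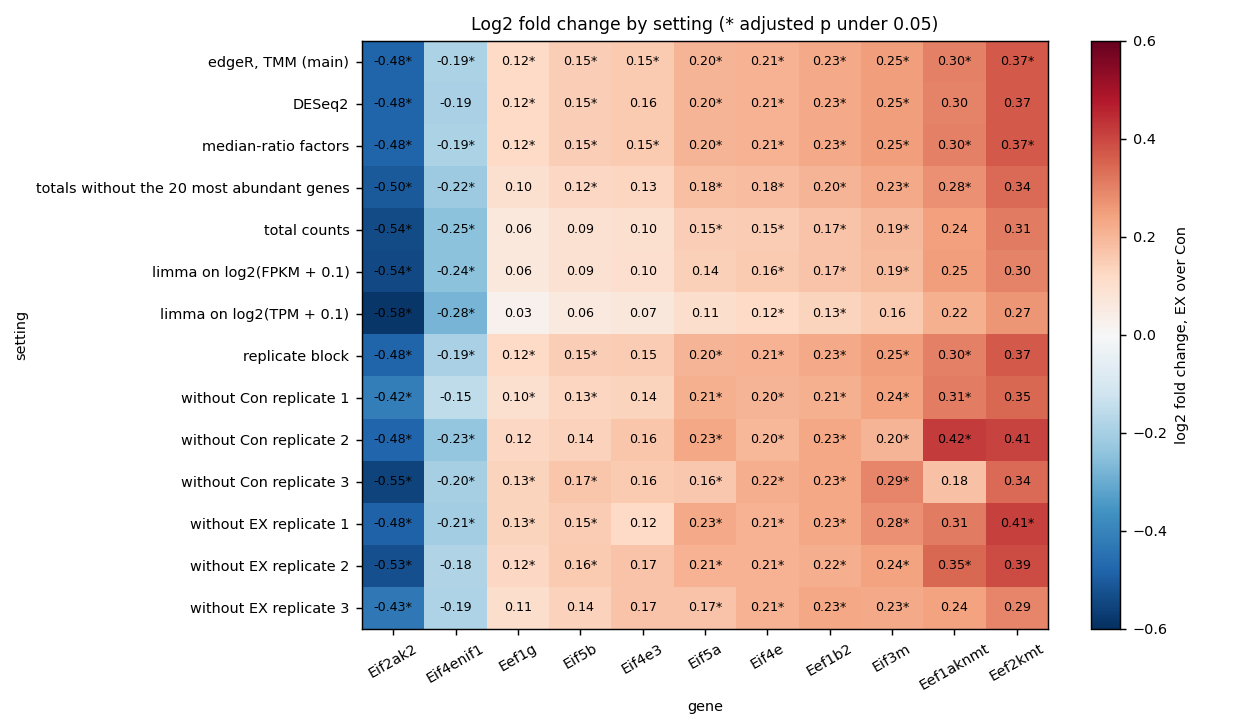
Log2 fold change (EX over Con, colour and number) of the 11 called members under 14 settings of the analysis, named on the vertical axis, with an asterisk where the adjusted p was under 0.05. Eef1b2, Eif4e and Eif2ak2 hold their direction and an asterisk in every setting shown, whereas Eif4e3 and Eef2kmt lose the asterisk in most.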

How the data were processed

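Total RNA (TRIzol) of hind leg muscle was sequenced in paired reads of 150 bases on a DNBseq platform, 1 library per mouse. For each gene and library, the deposited table gives an estimated count, an FPKM and a TPM that the authors computed. The study names HISAT and GRCm39, whereas the submitters' processing notes list cutadapt, featureCounts, MultiQC and GRCm38.p6, with no role or order given. The 6 columns of group means were not used. Estimated counts were rounded, a gene was kept if its FPKM averaged 1 or more (10883 of 16759), and EX was compared with Con by the quasi-likelihood test of edgeR 4.0.16 in R 4.3.3 with TMM scaling, with Benjamini-Hochberg adjustment and a threshold of 0.05. Standard errors come from the F statistic. CPM are TMM-scaled counts. Ratios within pairs were compared on FPKM by exact permutation. DESeq2 1.42.0 and limma 3.58.1 (log2 of FPKM or TPM plus 0.1, or FPKM plus 1) served as alternatives, and the scripts were tested on simulated data. The members and gene lists were chosen with earlier results of these data known. Named were the called members, both genes of each pair, the member of each complex with the highest FPKM, and at most 4 called genes of each other list; any other gene named was chosen after its values were seen, and most marker genes are given as counts only. RefSeq promoter windows and GENCODE M21 lengths are of GRCm38. The comparisons with GENCODE lengths were added after the data were seen. Depth was 13845362 to 16240431 counts a library, and intervals on counts cover counting error only.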

Additional observations from a re-analysis of the deposited data

How the results depend on the processing

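Against 11 called members (9 higher, 2 lower) and 1949 genes (991 higher, 958 lower), DESeq2 called 7 members (6 and 1) and 1228 genes (643 and 585), and limma called 6 members (3 and 3) on log2(FPKM + 0.1) and 6 (3 and 3) on log2(FPKM + 1). The direction split moved too. In edgeR, total counts gave 13 members (4 higher, 9 lower) and 2359 genes (585 and 1774), totals without the 20 most abundant genes 10 members (6 and 4) and 2037 genes (768 and 1269). Limma, which changes the test as well as the scale, gave 1448 genes (411 and 1037) on log2(FPKM + 0.1), and 13 members (2 and 11) and 2024 genes (340 and 1684) on TPM. The median of the members stood 0.014 to 0.044 above that of all genes under every setting run, with 53.8% to 58.5% of members above the median of all genes. A change of scale alone moves all genes nearly alike, so it could not have altered this offset. Leaving out 1 library gave 6 to 11 members and 1344 to 1857 genes; it was 6 without EX replicate 3 (5 and 1) and 7 without Con replicate 2 (5 and 2). Eef1b2 and Eif4e kept their calls in 16 of 16 alternatives and Eif2ak2 in 15 of 15 (it lies under the filter of 5 FPKM), Eif3m lost its in TPM (adjusted p = 0.0653), Eif5a in FPKM and TPM, Eif4enif1 kept 12 of 16 calls, Eif5b 10 of 16, Eef1g 9 of 16, Eef1aknmt 8 of 16, Eef2kmt 3 of 15 and Eif4e3 1 of 16. The log2 ratio difference of Eef1a1 to Eef1a2 ran from -0.045 to -0.035.

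The sign of small changes turned under some settings (FPKM and TPM with limma): Eef1a1 to -0.017 (total counts), -0.019 (FPKM, both pseudocounts) and -0.054 (TPM); Eef1a2 to -0.014 (TPM); Eef2 to -0.039 (total counts), -0.0071 (totals without the 20), -0.04003 and -0.03996 (FPKM), -0.075 (TPM) and -0.00033 without EX replicate 2 (0.043 without EX replicate 1); Eif4ebp2 to -0.017, -0.037, -0.037 and -0.073 and, in the same order of total counts, FPKM with either pseudocount and TPM, Eif2s3x to -0.0052, -0.0056, -0.0054 and -0.041; and in TPM Eif1ax to -0.0017, Eif4a2 to -0.032 and Eif6 to -0.027. Without EX replicate 2, Eif2ak1 was at 0.015 (-0.047 without EX replicate 3). Eef1a2 was called without Con replicate 1 (0.099, adjusted p = 0.0186), and its change ran from 0.058 to 0.09982 over the omissions of a library. The cause of each turn was not tested. Same-numbered libraries did not deviate together (correlations -0.0845, -0.0516 and -0.0711), so the numbers are no pairs; with the replicate block 9 members (7 and 2) and 1782 genes were called, without Eif4e3 and Eef2kmt. Eif4e1b rests on few reads, and the low methyltransferases Eef1akmt4 and Eef1akmt2 had 22 to 35 and 44 to 61 reads per library. The part of counting depth in their spread was not tested.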
